A study of Mus musculus with 12 samples.

Results

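The genes described here encode the matrix metalloproteases (Mmp), the secreted proteases with thrombospondin motifs (Adamts) and the tissue inhibitors of metalloproteases (Timp). They were taken by symbol from the table of mRNA counts, which gave 46 of 55228 genes, namely 23 Mmp, 19 Adamts and 4 Timp genes. Their mRNA was compared between the proepicardium (PE), dissected by hand from mouse embryos at E9.5, and the embryonic epicardium (EE), FACS-sorted at E10.5, in 3 libraries per stage that were each made from a separate pool of embryos. All samples were untreated and carried the same reporter strain, which the labels name Wt1Cre-EGFP and the paper's methods Wt1GFP/+. The sort gate is not given in the sources used here. Stage and way of collection changed together, so that they cannot be told apart in any difference below.

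Mmp enzymes cut collagens, laminins and other proteins of the extracellular matrix, and depend on a zinc ion in their active site. Adamts enzymes share this kind of active site and act on proteoglycans such as versican, on procollagens and on microfibrils. Timp proteins block Mmp enzymes by binding at the active site, and Timp3 also inhibits Adamts enzymes. The balance between enzyme and inhibitor is known to shape the matrix through which mesothelial cells spread over the heart and enter the subepicardial space. Much of this control acts on the protein, by secretion as inactive precursors and by inhibition, and was not measured here.

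The libraries held 18464362 to 25814015 counts, and the authors deposited them as whole numbers per gene. Levels are given as CPM, the count of a gene relative to the TMM-scaled total of its library, and fold changes as EE over PE on the log2 scale with their standard errors (SE). A gene was called at an adjusted p under 0.05 with a log2 fold change beyond 0.58 in either direction. The third EE library (EE3) had the fewest genes detected, 18763 against 22186 to 24842 in the others. All 10 of 10 epicardial markers, Wt1 among them, were higher in EE and made up 0.0634% to 0.0703% of the PE libraries and 0.551% to 0.73% of the EE libraries. The 10 hepatoblast markers all had higher levels in PE, where they made up 0.305% to 0.555% of a library, beside 0.000443% to 0.00677% in EE. Among 10 markers of endothelium and endocardium, 5 had higher levels in PE and 1 in EE (0.0452% to 0.0552% of the PE libraries and 0.024% to 0.039% of the EE libraries). Of 10 cardiomyocyte markers 5 were higher in EE, of 10 macrophage and blood markers 1, and of 10 smooth muscle and mesenchymal markers 2, with none higher in PE in these 3 lists. Of all 23853 genes tested, 4.86% were called higher in PE and 4.52% higher in EE. The cardiomyocyte markers made up 0.504% to 0.754% of the PE libraries and 0.9% to 1.39% of the EE libraries. For macrophage and blood markers the shares were 0.0959% to 0.262% and 0.0146% to 0.24%, and for smooth muscle and mesenchymal markers 0.303% to 0.323% and 0.27% to 0.454%. No marker of these lists was at 0 in all EE libraries. In such bulk libraries, fewer cells of a type and less RNA per cell cannot be told apart.

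The inhibitors Timp1 and Timp3 and the proteases Mmp23, Adamts5 and Adamts14 were higher in EE, whereas Adamts1, Mmp11 and Mmp19 were higher in PE. A gene was tested if 3 or more of the 6 libraries held a count of it, which left 34 of the 46 genes and removed 12. Thus 3 of 34 were called higher in PE and 5 of 34 higher in EE, 23.5% in all, beside 9.38% of all 23853 genes tested (4.86% higher in PE and 4.52% higher in EE). The values of the stages did not overlap for 17 of the 34, or 50%, beside 31.9% of all genes tested. The median log2 fold change of the 34 genes was -0.06 and that of all genes tested also -0.06. Without a single library, 1 to 4 of these genes were called higher in PE (1 without PE1) and 3 to 4 higher in EE (3 without PE3).

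**Figure D1:**
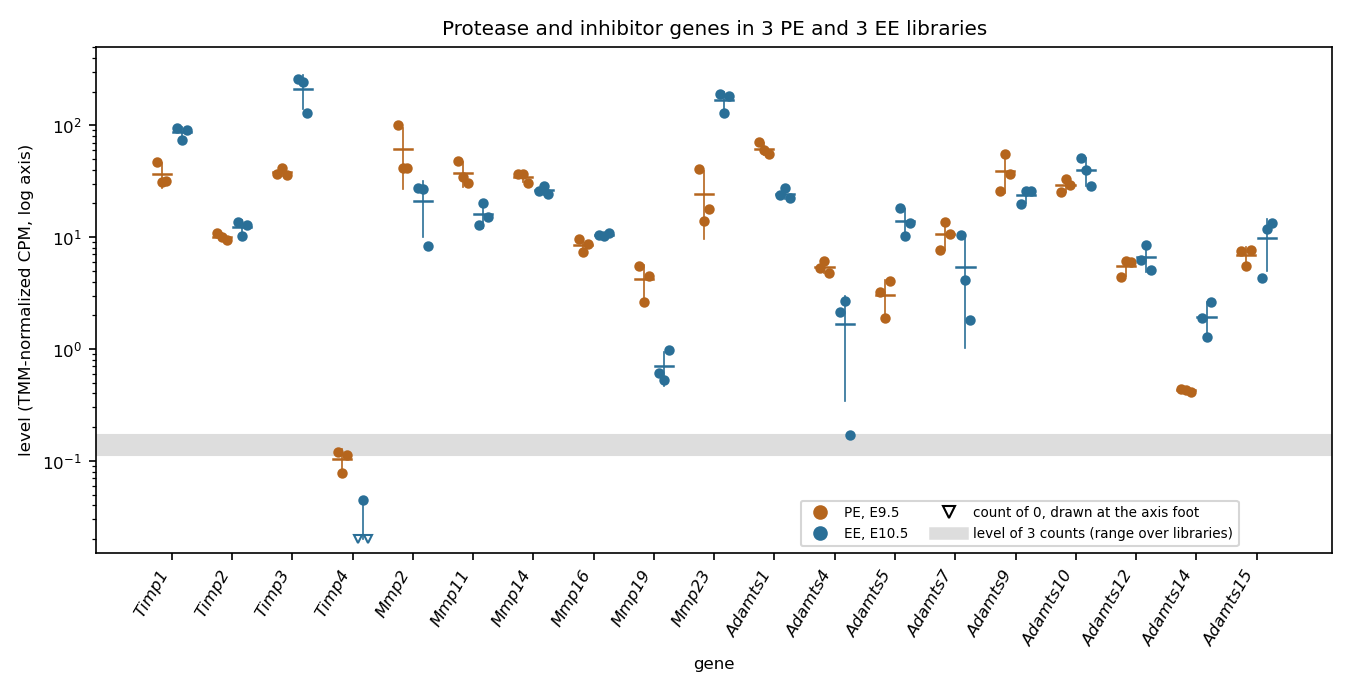
Levels in TMM-normalized CPM on a log axis for the genes called or at 5 CPM or more in a stage, and for Timp4, in 3 PE (brown) and 3 EE (blue) libraries. Short horizontal lines are means, vertical lines the SD (n = 3), open triangles counts of 0, and the grey band is the level of 3 counts. Timp3 and Mmp23 stand at 128.0 CPM or more in all EE libraries and at 41.8 CPM or less in all PE libraries.

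Of the 4 inhibitor genes, Timp3 changed the most among those called. Timp3, whose product stays bound to the matrix and also inhibits Adamts enzymes and the sheddase Adam17, was at 36.6, 41.8 and 36.1 CPM in PE and at 256.8, 241.7 and 128.9 CPM in EE. The PE libraries lay close together, and the lowest EE library, EE3, was still above all of them. The log2 fold change was 2.45 (SE 0.273, adjusted p = 0.000691). Timp3 lies on chromosome 10 of GRCm38 from 86300372 to 86349506, within the synapsin gene Syn3 on the other strand, and 21.3% of its exon bases overlap exons of Syn3. As the library kit keeps no strand, reads from the shared bases cannot be told apart. Syn3 had 36 to 45 counts in the PE libraries and 1 to 45 in the EE libraries, and Timp3 had 909 to 1070 and 2258 to 5922. How reads in the shared bases were assigned is not given in the sources used here, and their part in the difference was not tested.

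Timp1, a secreted inhibitor that acts poorly on several of the membrane-bound Mmp enzymes, was at 47.3, 31.0 and 31.6 CPM in PE and at 94.2, 74.5 and 89.9 CPM in EE. All EE libraries were above the highest PE library, PE1. On the log2 scale the difference was 1.23 (SE 0.231, adjusted p = 0.0100), and the call was lost without PE3 (adjusted p = 0.0560). It lies on the X chromosome from 20870166 to 20874735, inside Syn1 on the other strand with no shared exon base. Timp2, which takes part with Mmp14 in activating the Mmp2 precursor, was at 11.0, 10.0 and 9.33 CPM in PE and 13.7, 10.2 and 12.8 CPM in EE. The stages overlapped, with a log2 fold change of 0.28 (SE 0.264, adjusted p = 0.579). Timp4, an inhibitor of adult heart and other tissues that lies within Syn2, had 3, 2 and 3 counts in PE and 0, 1 and 0 counts in EE, so that it stood at or below the level of 3 counts in all libraries (0.112 to 0.171 CPM, which covers counting error only).

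Immediate early genes moved in the same libraries. Of 15 of them 11 were higher in EE and none in PE, beside 4.52% and 4.86% of all genes tested. They made up 0.00621% to 0.0105% of the PE libraries and 0.05% to 0.13% of the EE libraries. Fos, a subunit of the AP-1 transcription factor, averaged 4.04 ± 1.24 CPM (SD, n = 3) in PE libraries and 499.9 ± 266 CPM (SD, n = 3) in EE libraries, and Jun, its partner, at 7.07 ± 2.49 and 20.2 ± 8.56 CPM. Their part in the differences of the inhibitor and protease genes was not tested.

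Per kb of exon, Mmp23 led the Mmp genes in each EE library and in no PE library. Mmp2 led in PE1 and PE3, and Mmp11 narrowly in PE2. Mmp23, a membrane-anchored protease without the hemopexin domain of most Mmp enzymes, was at 41.0, 14.1 and 17.8 CPM in PE and at 190.1, 128.0 and 181.0 CPM in EE. The lowest EE library was above the highest PE library, and PE1 stood above the other PE libraries. The log2 fold change was 2.78 (SE 0.393, adjusted p = 0.00247), the highest of the 8 genes called. Mmp23 lies on chromosome 4 from 155650655 to 155653384, and none of its exon bases overlap another annotated gene.

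Mmp11 and Mmp19 were higher in PE. Mmp11, or stromelysin-3, which is activated inside the cell by furin, was at 48.2, 34.2 and 30.4 CPM in PE and 12.7, 20.3 and 15.1 CPM in EE. The stages did not overlap (log2 fold change -1.23, SE 0.276, adjusted p = 0.0230). It no longer passed without PE1 (adjusted p = 0.0596), PE2 (adjusted p = 0.0531) or EE1 (adjusted p = 0.0646). Mmp19, a secreted protease that cuts basement membrane proteins, was at 5.48, 2.62 and 4.54 CPM in PE and below 1 CPM in all EE libraries, at 0.607, 0.532 and 0.970. On the log2 scale the difference was -2.58 (SE 0.511, adjusted p = 0.0129), and the call was lost without PE1 (adjusted p = 0.0505) or PE3 (adjusted p = 0.0605). Of the exon bases of Mmp19, 28.3% overlap genes on the other strand, Tmem198b and Gm47093.

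The gelatinase Mmp2 and its activator Mmp14 did not pass the test, although neither overlapped between the stages. Mmp2, which cuts denatured collagen and type IV collagen, was at 100.7, 41.3 and 41.7 CPM in PE and 27.2, 26.9 and 8.33 CPM in EE. A single library stood apart within each stage, PE1 on the high side and EE3 on the low side. The log2 fold change was -1.55 (SE 0.486, adjusted p = 0.0794), and it passed with DESeq2 (adjusted p = 0.0116) and with no filter on low counts (adjusted p = 0.00625). Mmp14, a membrane-anchored collagenase, was at 36.3, 36.6 and 30.5 CPM in PE and 25.8, 28.4 and 24.0 CPM in EE, a difference of -0.40 on the log2 scale (SE 0.209, adjusted p = 0.273). Mmp16, another membrane-bound enzyme, averaged 8.57 ± 1.19 CPM (SD, n = 3) in PE libraries and 10.53 ± 0.370 CPM (SD, n = 3) in EE libraries (log2 fold change 0.30, adjusted p = 0.560). The other membrane-bound genes were rarer. Mmp15 was at 2.64 ± 0.58 and 3.01 ± 1.02 CPM and Mmp17 at 0.965 ± 0.346 and 1.03 ± 0.616 CPM, while Mmp25 was at 0.359 ± 0.174 and 0.131 ± 0.116 CPM, and these 3 did not pass.

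Mmp21, a gene required for left-right asymmetry, had 0, 0 and 1 counts in PE and 3, 2 and 10 counts in EE (adjusted p = 0.115). Mmp9, the other gelatinase, known from macrophages and neutrophils, had 11, 3 and 1 counts in PE and 0, 13 and 0 counts in EE, so that its EE reads came from a single library (adjusted p = 0.997). Mmp24 had 2 counts in PE2 alone and was not tested, and Mmp28, or epilysin, had 9 to 36 counts in PE and 8 to 20 in EE (adjusted p = 0.796).

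**Figure D2:**
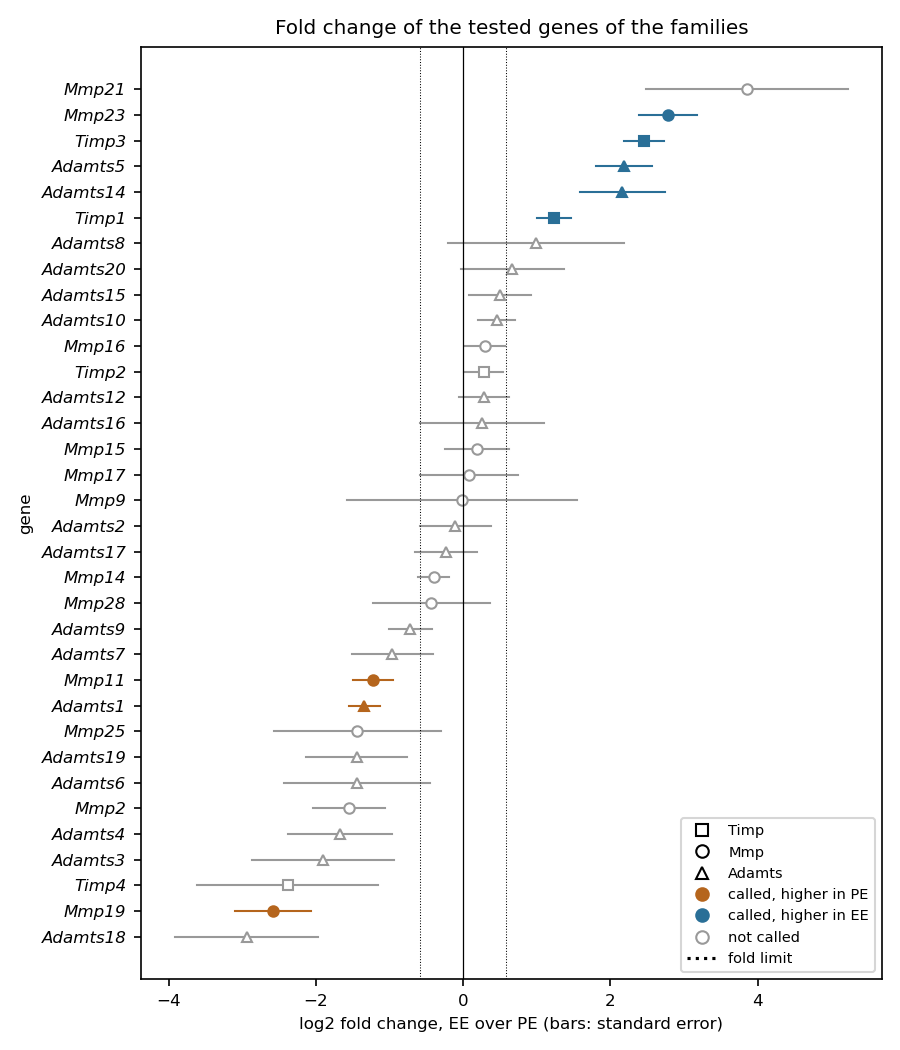
Log2 fold change of EE over PE for the 34 tested genes, ordered by size, with bars for the standard error. Filled symbols are genes called higher in EE (blue) or in PE (brown), open grey symbols are genes not called, and dotted lines mark the fold limit of 0.58. Mmp21 has the highest and Adamts18 the lowest fitted value, and neither was called.

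The secreted collagenases, stromelysins and matrilysin that lie side by side on chromosome 9 were close to silent in both stages. This cluster of 10 genes runs from 7272514 to 7699585 of GRCm38 and holds Mmp13, Mmp12, Mmp1b, Mmp3, Mmp1a, Mmp10, Mmp8, Mmp27, Mmp20 and Mmp7. Together they had 4 counts in the 6 libraries out of 139831850. Mmp1a had 1 count in each of PE1 and PE2, Mmp27 1 count in PE2 and Mmp10 1 count in EE2, and the other 7 genes had no count in any library. A count of 0 allows up to 0.112 to 0.171 CPM per library, so that lower levels were not detectable at this depth. None of these 10 genes was tested, and all the other Mmp genes but Mmp24 were.

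Promoters were looked up by symbol in a RefSeq table on GRCm38.p6, where 32 of the 46 genes were found. All 10 genes of the cluster were among them. The genes not found, such as Mmp2, Mmp9, Mmp19 and Adamts5, all lay outside the cluster and could not be searched. The motif TGANTCA, which is its own reverse complement apart from the middle base, was searched on both strands of the 250 bases before each start. It takes in the AP-1 site, which has C or G in the middle. It was present for 8 of the 10 genes of the cluster and for 0 of the 22 other genes, the 6 called genes that had a promoter in the table included. Counted by promoter, since some genes have more than 1 start, 8 of 12 promoters of the cluster held it, 0 of 23 of the other genes, and 6.75% of all 32851 in the table. The matches of the cluster began between 35 and 95 bases before the start, and in 7 of these genes a TATAAA motif was present as well, which 12.4% of all promoters held. The match of Mmp20 was TGAATCA, with A in the middle. Mmp12 and Mmp7 had a match before 1 start and none before another. The last 120 bases before the start are shown for 5 genes of the cluster (Mmp13, Mmp3, Mmp1a, Mmp10 and Mmp7), whose counts were at or next to 0, and then for 4 genes with high levels, with TGANTCA and TATAAA in capitals.
Mmp13 (chr9:7272394-7272513, plus strand): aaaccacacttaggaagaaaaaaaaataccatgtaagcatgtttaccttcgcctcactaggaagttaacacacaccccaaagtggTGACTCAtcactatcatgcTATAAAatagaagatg
Mmp3 (chr9:7445702-7445821, plus strand): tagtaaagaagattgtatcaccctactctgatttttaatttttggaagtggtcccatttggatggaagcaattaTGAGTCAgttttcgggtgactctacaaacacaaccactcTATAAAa
Mmp1a (chr9:7464021-7464140, plus strand): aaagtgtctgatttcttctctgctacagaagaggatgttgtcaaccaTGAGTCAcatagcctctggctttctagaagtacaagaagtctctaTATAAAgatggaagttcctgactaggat
Mmp10 (chr9:7502222-7502341, plus strand): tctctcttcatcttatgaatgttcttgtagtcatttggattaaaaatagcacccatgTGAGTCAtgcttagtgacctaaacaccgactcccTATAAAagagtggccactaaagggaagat
Mmp7 (chr9:7691970-7692089, plus strand): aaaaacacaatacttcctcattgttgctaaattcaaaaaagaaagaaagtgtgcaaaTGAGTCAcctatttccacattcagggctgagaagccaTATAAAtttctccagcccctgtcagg
Timp1 (chrX:20870046-20870165, plus strand): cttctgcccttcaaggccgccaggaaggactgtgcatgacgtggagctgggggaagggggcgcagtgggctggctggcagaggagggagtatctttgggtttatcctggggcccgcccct
Timp3 (chr10:86300292-86300411, plus strand): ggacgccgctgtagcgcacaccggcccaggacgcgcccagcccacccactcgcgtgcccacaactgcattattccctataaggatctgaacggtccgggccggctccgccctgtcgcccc
Mmp23 (chr4:155653385-155653504, minus strand): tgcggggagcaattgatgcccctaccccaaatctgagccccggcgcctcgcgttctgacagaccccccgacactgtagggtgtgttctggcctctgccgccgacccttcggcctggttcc
Adamts1 (chr16:85803114-85803233, minus strand): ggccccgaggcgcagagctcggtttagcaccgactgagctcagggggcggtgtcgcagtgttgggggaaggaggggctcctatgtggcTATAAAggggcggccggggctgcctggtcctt
In these bases the AP-1 letters stood upstream of the TATA letters in the 5 genes of the cluster, and Mmp7 had a further TATAAA upstream of its AP-1 letters within the 250 bases searched. Timp1, Timp3 and Mmp23 had neither motif in these bases, and Adamts1 had TATAAA alone. A match is a description of the letters and no evidence of binding. Sites with other letters, or outside the bases searched, were not looked for, so a gene without a match may still have one. In the EE libraries the 10 genes of the cluster had 1 count together. AP-1 protein was not measured, and its part in the levels of any of these genes was not tested.

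Of the 18 Adamts genes tested 1 had a higher level in PE and 2 in EE, beside 4.86% and 4.52% of all genes tested. The pair with the clearest values lies next to each other. Adamts1 and Adamts5, which both cut versican and aggrecan, lie on the minus strand of chromosome 16, from 85793827 to 85803113 and from 85856173 to 85901828, 53.1 kb apart. Adamts1, known from the endocardium and from trabeculation of the ventricle, was at 70.1, 60.4 and 54.9 CPM in PE and 23.7, 27.3 and 22.1 CPM in EE. The stages were far apart compared with the spread within each (log2 fold change -1.34, SE 0.209, adjusted p = 0.00407). Adamts5, known from the shaping of heart valves, was at 3.26, 1.87 and 4.05 CPM in PE and 18.1, 10.2 and 13.4 CPM in EE. It rose in all EE libraries over all PE libraries, with a log2 fold change of 2.18 (SE 0.385, adjusted p = 0.00760). Per kb of exon, the level of Adamts1 was 27.6 to 65.6 times that of Adamts5 in the PE libraries and 2.66 to 5.43 times in the EE libraries. Neither gene shares exon bases with another annotated gene, and both calls held under every alternative run. Of the 10 endothelial and endocardial markers, Pecam1, Cdh5, Tie1, Emcn and Esam were higher in PE, as Adamts1 was, and the endocardial gene Npr3 was higher in EE. Of the 4 not called, Kdr had a log2 fold change of -2.39, and Tek, Flt1 and the endocardial gene Nfatc1 had log2 fold changes of 0.42, 0.31 and 0.52. The part of these cells in the difference of Adamts1 was not tested.

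Of the other genes whose products cut versican or aggrecan none was called. Adamts9 was at 25.98, 55.1 and 36.8 CPM in PE and 19.8, 25.9 and 25.9 CPM in EE, barely apart between the stages (log2 fold change -0.72, SE 0.294, adjusted p = 0.163). Adamts4 was at 5.32, 6.05 and 4.76 CPM in PE and 2.12, 2.71 and 0.171 CPM in EE. The last value is that of 3 counts in EE3, and the adjusted p was 0.174 at a log2 fold change of -1.67. Adamts15 averaged 6.91 ± 1.18 CPM in PE libraries and 9.79 ± 4.78 CPM in EE libraries (SD, n = 3, adjusted p = 0.521). Adamts8, its neighbour on chromosome 9, had 3 to 15 counts in PE and 41, 12 and 0 counts in EE (adjusted p = 0.678), and Adamts20 was at 1.25 ± 0.580 and 1.995 ± 1.37 CPM (adjusted p = 0.621).

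Of the procollagen N-proteinases, which trim the amino end of fibrillar procollagens, Adamts14 was higher in EE, at 0.443, 0.430 and 0.412 CPM in PE and 1.91, 1.29 and 2.63 CPM in EE. These levels stand for 11 counts in each PE library and 44, 29 and 46 counts in the EE libraries. The log2 fold change was 2.16 (SE 0.582, adjusted p = 0.0470), and the call was lost with library size alone (adjusted p = 0.0544) and when any of the 6 libraries was left out, with adjusted p-values from 0.0513 without EE2 to 0.201 without PE2 (0.113 without PE1, 0.194 without PE3, 0.0744 without EE1 and 0.0559 without EE3). Its paralogs did not pass. Adamts2 averaged 3.37 ± 0.896 CPM in PE libraries and 3.13 ± 1.46 CPM in EE libraries (SD, n = 3, adjusted p = 0.929), and Adamts3 had 50, 20 and 43 counts in PE and 13, 13 and 0 counts in EE (log2 fold change -1.91, adjusted p = 0.258).

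Adamts10, which acts on fibrillin microfibrils, had the highest level per kb of exon of the Adamts genes in EE, with 4.85 ± 1.37 CPM per kb beside 4.599 ± 0.503 CPM per kb for Adamts1, a difference within their spread. It was at 25.5, 33.2 and 29.2 CPM in PE and 51.4, 39.8 and 28.9 CPM in EE. The stages overlapped through EE3 (log2 fold change 0.45, SE 0.256, adjusted p = 0.316). Adamts7 and Adamts12, which cut the cartilage protein Comp, were at 10.7 ± 3.01 and 5.47 ± 0.934 CPM in PE and at 5.44 ± 4.42 and 6.63 ± 1.77 CPM in EE, with adjusted p-values of 0.319 and 0.680. Comp itself had 2 counts in PE3 alone.

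Adamts18 had the lowest fold change of all 34 genes without being called. It had 74, 84 and 59 counts in PE and 3, 21 and 0 counts in EE, a difference of -2.94 on the log2 scale (SE 0.977, adjusted p = 0.0942). It passed with DESeq2 (adjusted p = 0.00907), with no filter (adjusted p = 0.0202) and without EE2 (adjusted p = 0.0205). Adamts19, known from the heart valves, was at 2.90, 5.27 and 2.85 CPM in PE and 0.694, 0.488 and 2.91 CPM in EE, where EE3 alone reached the PE values. It did not pass (log2 fold change -1.45, adjusted p = 0.227) but did so without EE3 (log2 fold change -2.62, adjusted p = 0.0130). Adamts6 had 44, 88 and 77 counts in PE and 53, 14 and 0 counts in EE (adjusted p = 0.415), and Adamts16 and Adamts17 had adjusted p-values of 0.892 and 0.792. Adamts13, the protease of von Willebrand factor, had 5, 0 and 4 counts in PE and none in EE and was not tested.

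In all, 26 of the 34 genes tested were not called, of which 10 reached 5 CPM in a stage and 16 did not. The 16 rarer genes had log2 fold changes from -2.94 to 3.86 and adjusted p-values from 0.0942 to 0.997, and the highest mean level among them was 3.67 CPM. Among the 26, the values of 9 did not overlap between the stages, or 34.6%. The share of 31.9% over all genes tested takes in the called genes, so that it is no like measure. A share over uncalled genes alone was not computed.

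Levels of different genes were compared per kb of exon. In PE the highest were Timp1 with 41.3 ± 10.4 CPM per kb (SD, n = 3), Mmp2 with 18.2 ± 10.1, Mmp11 with 13.5 ± 3.38, Adamts1 with 11.7 ± 1.46 and Mmp23 with 10.4 ± 6.23. Timp1 stood above the others in each PE library, and the other 4 did not differ from their neighbours in this order beyond their spread. In EE the order was Timp1 with 97.1 ± 11.7 CPM per kb, Mmp23 with 71.1 ± 14.3 and Timp3 with 25.7 ± 8.58, followed by Mmp2 with 6.18 ± 3.21 and Mmp11 with 5.77 ± 1.39. Here Mmp23 took 70.8% to 83.9% of the summed Mmp level, beside 15.3% to 23.5% in PE. Mmp2 took 31.1% to 40.0% in PE and 2.68% to 10.3% in EE.

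Summed over their members, the Timp genes were at 42.5 to 60.6 CPM per kb in PE and 116.2 to 141.1 in EE, and the Mmp genes at 39.1 to 74.6 and 77.2 to 100.2. The Adamts genes were at 22.6 to 26.3 CPM per kb in PE and at 14.4 to 18.9 in EE. None of these 3 sums overlapped between the stages, although for the Mmp genes PE1, at 74.6, came close to EE2, at 77.2. In CPM not divided by exon length the Mmp sums did overlap, at 137.6 to 246.5 in PE and 219.85 to 270.0 in EE. Without Mmp23, the Mmp sum turned around, with 31.5 to 57.1 CPM per kb in PE and 14.9 to 22.5 in EE. The ratio of the Timp sum to that of the Mmp and Adamts genes together was 0.614, 0.649 and 0.688 in PE and 1.19, 1.23 and 1.13 in EE. This ratio counts transcripts and says nothing of active protein, rests on Timp1 for 72.2% to 87.9% of the Timp sum, and depends on the exon lengths of the annotation.

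**Figure D3:**
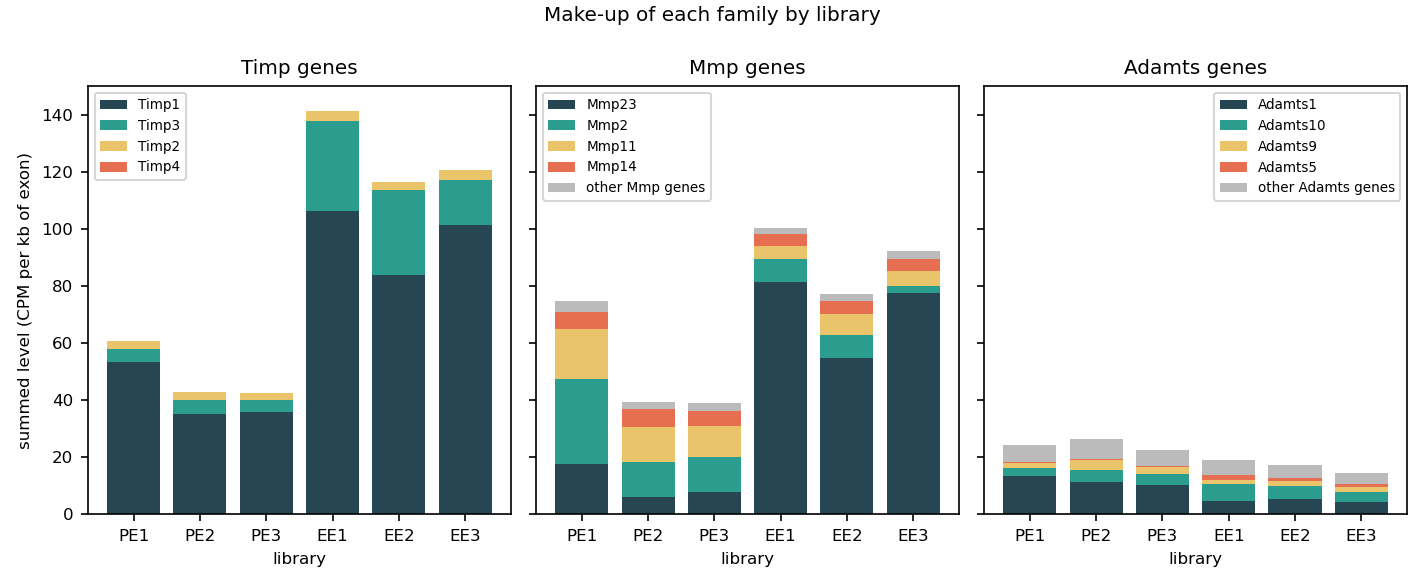
Summed level in CPM per kb of exon of the Timp, Mmp and Adamts genes in each of the 3 PE and 3 EE libraries, divided by gene. The Timp sums are 42.5 to 60.6 in PE and 116.2 to 141.1 in EE, and Mmp23 takes 70.8% to 83.9% of the Mmp sum in EE.

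Other genes of matrix proteolysis were read from the same test. Of 44 such genes in 6 lists, all tested, 3 were higher in PE and 9 higher in EE, beside 4.86% and 4.52% of all genes tested, and 32 were not called. Without a single library these numbers were 2 to 5 and 6 to 9, with 5 higher in PE without EE3 and 6 higher in EE without PE2, PE3, EE1 or EE2. Of 7 Adamts-like genes, whose products resemble Adamts enzymes without the protease domain and some of which bind microfibrils, 3 were higher in EE and none in PE. Adamtsl1 was at 3.73 ± 0.722 CPM (SD, n = 3) in the PE and 30.3 ± 3.70 CPM (SD, n = 3) in the EE libraries, apart by 3.02 on the log2 scale (SE 0.274, adjusted p = 0.000280). Adamtsl3 and Adamtsl5 rose from 1 to 5 counts per PE library to 30 to 65 counts per EE library. Fbn1, a fibrillin of the microfibrils, was called as well, with a log2 fold change of 1.56 (adjusted p = 0.00633). The other fibrillin listed, Fbn2, was not called (log2 fold change 0.22, adjusted p = 0.593). Fbn2 averaged 102.0 ± 24.7 CPM in PE libraries and 118.8 ± 12.1 CPM in EE libraries, beside 27.7 ± 5.98 and 81.9 ± 23.5 CPM for Fbn1 (SD, n = 3).

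Of 10 genes of the Adam family, which includes membrane proteases that shed surface proteins, Adam33 and Adam9 were higher in EE and Adam15 was higher in PE. Adam33 averaged 1.35 ± 0.654 CPM in PE libraries and 23.2 ± 10.9 CPM in EE libraries (SD, n = 3, log2 fold change 4.10, SE 0.496, adjusted p = 0.00111). Adam9 had a log2 fold change of 0.90 and Adam15 one of -1.41, with adjusted p-values of 0.0317 and 0.0251. Adam17, the target of Timp3, averaged 113.2 ± 29.9 CPM in PE libraries and 65.7 ± 31.4 CPM in EE libraries and was not called (adjusted p = 0.233).

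Of 6 genes of the plasminogen system, which activates several Mmp precursors, 2 were higher in PE and 1 in EE. Plat, the tissue-type plasminogen activator, averaged 245.6 ± 4.68 CPM in PE libraries and 1071 ± 256 CPM in EE libraries (SD, n = 3, log2 fold change 2.12, adjusted p = 0.000383). Plg and Serpinf2, which liver cells secrete, were higher in PE, with differences of -5.28 and -7.17 on the log2 scale (adjusted p = 0.0103 and 0.00267). The hepatoblast markers, 10 of 10 higher in PE with summed levels of 2997 to 5154 CPM there and 4.48 to 71.9 CPM in EE, moved with them, and their part in this difference was not tested.

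Of 5 genes for trimming the carboxyl end of procollagens Pcolce, an enhancer of Bmp1, was higher in EE (log2 fold change 1.52, SE 0.277, adjusted p = 0.00896), and Bmp1 itself was not called (log2 fold change 0.77, adjusted p = 0.0611). Of 6 cathepsin and heparanase genes Ctsk and Ctss were higher in EE, by 2.45 and 4.43 on the log2 scale (adjusted p = 0.0459 and 0.0326). Ctss is a cathepsin of macrophages. Of the 10 macrophage and blood markers Csf1r was called higher in EE, with 2.88 ± 1.33 CPM in the PE and 15.4 ± 1.74 CPM in the EE libraries (SD, n = 3), and 9 were not called. Leaving aside the 2 globin genes, which made up most of the list's summed level of 928.3 to 2429 CPM in PE and 154.0 to 2425 CPM in EE, the other 8 markers summed to 43.9, 12.4 and 5.10 CPM in PE and 63.6, 35.4 and 28.3 CPM in EE. Of these 8, 7 had a positive fold change, among them C1qb (1.66 ± 2.25 and 8.44 ± 5.97 CPM) and Tyrobp (1.16 ± 1.78 and 5.56 ± 4.08 CPM), and Lyz2 a negative one. Their part in the difference of Ctss was not tested. Of 10 further activators, inhibitors and clearance receptors none was called, among them Reck, a membrane-anchored inhibitor (25.1 ± 2.45 and 23.3 ± 8.05 CPM, adjusted p = 0.866), and the clearance receptor Lrp1 (57.0 ± 12.7 and 27.4 ± 10.47 CPM, adjusted p = 0.0637). Of 12 substrates 11 were tested, of which Fn1 and Fbn1 were higher in EE and Tnc, or tenascin C, was higher in PE (log2 fold change -2.89, adjusted p = 0.00627). Over all genes tested, 4.52% were higher in EE and 4.86% in PE. Vcan, the versican substrate of Adamts1 and Adamts5, averaged 136.7 ± 45.9 CPM in PE libraries and 98.1 ± 27.9 CPM in EE libraries and was not called (log2 fold change -0.48, adjusted p = 0.363).

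Of the 8 called protease and inhibitor genes, 4 kept their call under each of the 13 other fits, namely Timp3, Mmp23, Adamts1 and Adamts5. Their adjusted p-values reached at most 0.00675 for Timp3, 0.0119 for Mmp23, 0.0159 for Adamts1 and 0.0279 for Adamts5. The direction of all 8 was the same in each of these fits.

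**Figure D4:**
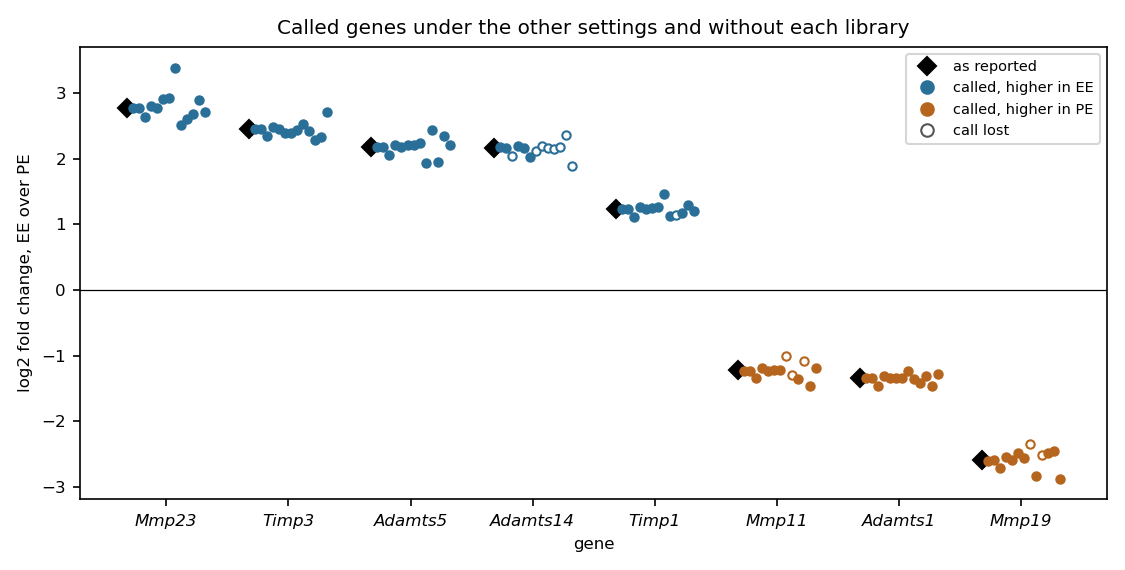
Log2 fold change of EE over PE of the 8 called genes as reported (black diamonds) and under 13 other fits, among them those without each library (circles). Open circles are fits in which the call was lost, 8 for Adamts14, 3 for Mmp11, 2 for Mmp19 and 1 for Timp1.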

How the data were processed

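The mRNA of PE and EE was sequenced in 3 libraries per stage. The authors deposited whole-number counts per gene that were not normalized, for 55228 genes. By the paper, the SMART-Seq v4 kit was used, which keeps no strand, and RSEM for the mm10 transcriptome, whereas the submitters' processing notes name Trim Galore 0.4.3.1, STAR and featureCounts. How multiply mapped reads were counted is not given in the sources used here. The column names write EPDC for EE, and EPDC1 to EPDC3 were taken as the first to the third EE sample. As each sample was a pool of embryos by its label, p-values measure the spread between pools. The small RNA counts were not used here.

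TMM factors were computed and EE was compared with PE in edgeR 4.0.16 (quasi-likelihood test, R 4.3.3) over the 23853 genes counted in 3 or more of 6 libraries, with Benjamini-Hochberg adjustment over all of them. The filter and limits (adjusted p under 0.05, log2 fold change beyond 0.58) follow the paper's methods, which name no test on counts. Standard errors are the fold change over the root of F. The test was tested on simulated counts with known changes. Exon lengths, positions and overlaps are from GENCODE M21 on GRCm38, promoters from RefSeq (GRCm38.p6). The comparison was repeated with DESeq2 1.42.0, with limma 3.58.1 on log2(normalized count + 1), with RLE factors or library size alone in place of TMM, with the filter of filterByExpr or none, without a fold limit, with a block for the replicate number, and without each library. Genes, lists and motifs were chosen with earlier results of these data known. The text names every called gene, all Timp genes and those at 5 CPM or more in a stage, and of the other lists up to 4 called genes. Further genes named, such as the rarer Adamts genes, Adam17, Bmp1, Reck, Lrp1 and Vcan, were chosen after their values were seen. For 1 gene of these lists the result is not reported here, and the counts leave it out.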

Additional observations from a re-analysis of the deposited data

How the results depend on the processing

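All 8 called genes kept their direction under the 14 alternatives. The members called higher in PE were 3 as reported, 5 with DESeq2, 5 without a filter and 6 in the fit with a replicate block, and 1 to 4 when a library was left out, with 1 without PE1. Those called higher in EE were 5 as reported and 3 to 4 when a library was left out, with 3 without PE3. For the 44 other genes of matrix proteolysis the numbers were 3 and 9 as reported, and 2 to 5 and 6 to 9 when a library was left out, with 5 higher in PE without EE3 and 6 higher in EE without PE2, PE3, EE1 or EE2. Of the 34 genes tested, 7 changed sign under an alternative, none of them called. When a library was left out their log2 fold changes ranged from -0.37 to 0.22 for Adamts2, from -0.50 to 1.56 for Adamts8, from -0.40 to 0.66 for Adamts16, from -5.29 to 1.29 for Mmp9, from -0.10 to 0.39 for Mmp15, from -0.50 to 0.40 for Mmp17 and from -0.97 to 0.42 for Mmp28. With limma they were -0.062 for Adamts8 and -0.012 for Mmp17, and for the latter -0.040 with library size alone. The cause was not tested.

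The samples of the stages share only a replicate number. The deviations of samples with the same number from their stage means correlated at -0.084, 0.088 and 0.018. These values show no pairing by number, and with 3 samples per stage they cannot exclude one. Only EE2 correlated best with the sample of its own number. With the replicate block, Adamts4 (adjusted p = 0.0396), Mmp2 (adjusted p = 0.00218) and Adamts18 (adjusted p = 0.0104) passed, Adamts14 did not (adjusted p = 0.0958), and Mmp17 had a log2 fold change of -0.035. Library size alone moved the median log2 fold change of all genes from -0.06 to -0.18. Genes with few counts, such as Mmp21 and Timp4, are limited by depth.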
